A study of Mus musculus with 30 samples.

Results

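Forkhead (Fox) genes outside Foxa1 and Foxa2 were followed through embryoid body differentiation of mouse embryonic stem (ES) cells that lack subunits of Polycomb repressive complex 2 (PRC2). Every row of the deposited gene table whose symbol begins with Fox, a letter from a to s and a digit was taken, and Foxa1 and Foxa2 were left out, which gave 43 members of 20563 genes. Foxd2os and Foxl2os, 2 of the 43, carry antisense names, and Foxo3 was not analysed here. RNA-seq libraries came from 5 lines, which the labels call Pali1-/-, Pali1-/- Pali2-/-, wild type (Pali), Aebp2gt/gt and wild type (C129). Aebp2gt/gt cells carry a gene trap in both copies of Aebp2. Each line was sampled as ES cells grown with leukaemia inhibitory factor (LIF) on gelatin (day 0) and as embryoid bodies in non-adherent dishes without LIF on day 4 and day 8, with 2 libraries in each of the 15 groups. Both Pali mutants share the Pali wild-type control, and the C129 wild type was taken as the control of the gene trap from the order of the series' design text. The labels name 1 line per genotype, whether several clones stand behind a line was not stated in the labels, and duplicates are labelled biological, so a p-value here covers culture-to-culture spread within a line. For the first double-mutant library of day 0 and of day 4, the description names the other culture state than the title, and the title, source name and growth protocol were followed.

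Forkhead factors share a winged-helix DNA-binding domain and bind closely related sites, and their family letters mark subfamilies with separate roles in the embryo. FoxB, FoxC, FoxD, FoxF and FoxQ genes pattern brain, mesoderm, kidney and gut, FoxH1 carries Nodal signals, FoxO proteins answer to insulin signalling, FoxM1 drives genes of mitosis, FoxJ1 drives motile cilia, and FoxP genes act in brain, lung and lymphocytes. PRC2 places methyl groups on histone H3 at CpG-rich promoters of silent developmental genes, and PALI1 and AEBP2 are alternative accessory subunits of separate forms of the complex.

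The values are the submitters' normalised counts, in which 1 read is worth 0.651 to 1.27 units depending on the library, and a pair of values is always given with replicate 1 first. Library totals lay between 15470082 and 18336791 units, and the reads behind them were estimated at 13198293 to 28151943. Of the 43 members, 30 reached a value of 10 in at least 2 libraries and were tested with limma on log2(value + 4) in 1 fit over all 30 libraries and 15712 genes. A gene is called where its adjusted p (Benjamini-Hochberg over those 15712 genes) is under 0.05, folds are on that log2(value + 4) scale, which understates the change of low genes, and SE is the moderated standard error. Aebp2 itself lay between 17.1 and 66.4 in the 6 gene-trap libraries, against 1232 to 2784 in the other 24. Lcor and Lcorl, the host loci of the PALI transcripts, are given per locus, so these values do not check the Pali genotypes. Pou5f1, the core pluripotency factor, lay between 19670 and 23510 in the 10 day 0 libraries. The kit marks strand, but the sources used here do not say if the counting took it into account, and 11 of the 30 tested members (Foxb1, Foxf1, Foxf2, Foxj2, Foxl2, Foxl2os, Foxn3, Foxo1, Foxp3, Foxp4 and Foxq1) are overlapped by a gene on the other strand. In these bulk cultures, fewer cells of a type and less RNA per cell cannot be told apart.

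The 13 members that were not tested stayed near 0. Foxb2, Foxe3 (lens), Foxi1 (inner ear and ion-transporting cells), Foxs1, Foxi2 and Foxe1 (thyroid) had highest values of 2.62, 2.62, 2.26, 2.44, 3.49 and 3.91 in any library. Foxn4 (retinal and spinal interneurons) reached 4.52, Foxn1 (thymus epithelium) 5.22, Foxd2os 8.73, Foxc2 (lymphatic vessels and head mesenchyme) 9.79 and Foxd2 11.3. Foxl1, a gene of the gut mesenchyme, reached 15.2 in 1 library of Pali1-/- day 8 cells and was above 0 in all 30. Foxj3 was listed at 0 in 29 libraries and at 14.0 in the other, replicate 2 of Pali1-/- day 4. Each library had 16 to 29 members at or above 10.

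Several members are neighbours in the genome (GRCm38, GENCODE M21 positions). On chromosome 13, Foxq1 (chr13:31556134-31560976), Foxf2 (chr13:31625816-31631403) and Foxc1 (chr13:31806633-31812476) lie on the plus strand with gaps of 64.8 kb and 175.2 kb. Chromosome 8 holds Foxf1, Foxc2 and Foxl1 with gaps of 28.0 kb and 9.0 kb, and chromosome 4 holds Foxd2, Foxd2os and Foxe3 with gaps of 0.4 kb and 3.2 kb. Foxl2os and Foxl2 on chromosome 9 overlap on opposite strands, and their RefSeq starts lie 297 bases apart. Foxb1 lies at chr9:69757710-69760940 on the minus strand, Foxd1 at chr13:98354242-98359305 and Foxd3 at chr4:99656299-99658622 on the plus strand. Among members with a RefSeq promoter (26 members, 29 promoters, 300 bases from 250 before to 50 after the start, GRCm38.p6), the median number of CpG was 22, against 7 over all 32851 promoters. The 21 promoters of tested members had a median of 25 CpG, and the 8 of members that were not tested had 10. Of the 29 promoters, 0 held the forkhead core GTAAACA on either strand (3.65% of all promoters do), 13 held CCAAT on either strand (37.4%) and 2, those of Foxa3 and Foxp3, held TATAAA on the sense strand (8.32%). Below are the 230 bases from 250 to 21 before the start, for Foxc1 and Foxf2 as neighbours on chromosome 13, and for Foxd1 and Foxd3 as the FoxD genes that moved in opposite directions in gene-trap cells on day 8, with each CpG in capitals (RefSeq, GRCm38.p6).
Foxc1, chr13:31806396-31806625, plus strand: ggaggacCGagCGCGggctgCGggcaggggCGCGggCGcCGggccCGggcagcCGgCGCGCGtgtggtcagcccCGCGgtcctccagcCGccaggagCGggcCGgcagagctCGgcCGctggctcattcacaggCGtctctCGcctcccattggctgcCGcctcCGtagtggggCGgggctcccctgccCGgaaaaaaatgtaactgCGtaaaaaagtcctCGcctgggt
Foxf2, chr13:31625566-31625795, plus strand: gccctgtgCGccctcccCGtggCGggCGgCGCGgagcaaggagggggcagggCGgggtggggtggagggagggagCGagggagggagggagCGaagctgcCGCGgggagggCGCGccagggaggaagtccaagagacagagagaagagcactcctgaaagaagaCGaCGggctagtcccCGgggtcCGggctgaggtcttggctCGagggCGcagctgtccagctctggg
Foxd1, chr13:98353995-98354224, plus strand: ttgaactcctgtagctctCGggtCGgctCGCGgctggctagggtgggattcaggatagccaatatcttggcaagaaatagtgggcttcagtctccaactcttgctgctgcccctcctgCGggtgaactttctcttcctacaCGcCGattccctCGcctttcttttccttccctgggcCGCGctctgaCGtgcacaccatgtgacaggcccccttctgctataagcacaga
Foxd3, chr4:99656049-99656278, plus strand: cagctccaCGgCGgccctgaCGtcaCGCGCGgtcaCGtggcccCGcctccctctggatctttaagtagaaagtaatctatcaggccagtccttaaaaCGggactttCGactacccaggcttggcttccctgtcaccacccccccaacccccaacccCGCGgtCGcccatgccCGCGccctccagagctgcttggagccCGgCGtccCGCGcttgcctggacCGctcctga

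The printed stretches hold 28 CpG for Foxc1, 19 for Foxf2, 11 for Foxd1 and 20 for Foxd3. Over the full 300 bases, Foxc1 had 32 CpG, a number reached by 9.52% of all promoters, and Foxf2 had 27 (15.5%). Foxd3 had 25 CpG (18.4%) and Foxd1 15 (34.6%), so the promoters of these FoxD genes differ in CpG number. All 4 lie on the plus strand.

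**Figure D1:**
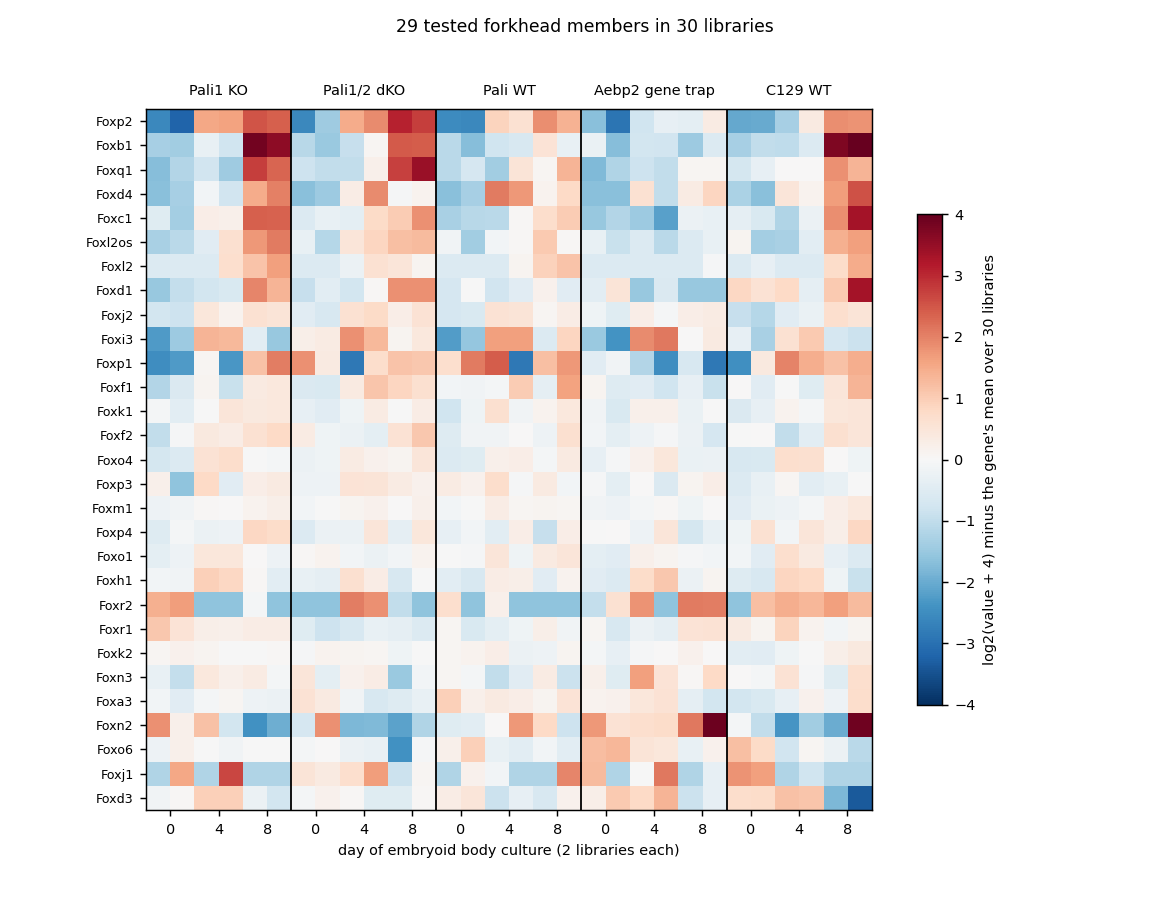
Heat map of 29 tested members (rows, ordered by their mean day 8 minus day 0 difference) in the 30 libraries (columns), coloured by log2(value + 4) minus the member's mean, with the colour scale ending at 4 in either direction. Foxb1, Foxp2 and Foxq1 are high on day 8 in several lines, and Foxb1 is low in both Aebp2gt/gt day 8 libraries (0.798 and 4.91).

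On day 8, Aebp2gt/gt embryoid bodies had less RNA from 8 forkhead members, Foxb1, Foxc1 and Foxd1 among them, than C129 wild-type embryoid bodies, and more from Foxd3. Of the 30 tested members, 9 were called (30%), against 20.1% of all tested genes. Foxb1, Foxc1, Foxd1, Foxd4, Foxl2, Foxl2os, Foxm1 and Foxp2 fell, which is 8 members lower where 10.6% of all genes were lower, and Foxd3 alone was higher, where 9.59% of all genes were. The median over the tested members was -0.36 on the log2 scale, against -0.01 over all tested genes. No called member had overlapping groups. Foxb1 and Foxl2 reached 10 in no gene-trap library, and Foxd1 in only 1 (12.3, day 0 replicate 2), so these genes entered the test only through other lines. Low in the gene trap throughout, they had little room to be called higher there. The count of lower members and the median were thus partly set by the filter. Without Aebp2gt/gt replicate 1 of day 8, only Foxb1, Foxc1, Foxd1 and Foxd3 kept their calls. Without C129 wild-type replicate 2, only Foxb1, Foxc1 and Foxd1 did.

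Foxb1 is a factor of the caudal neural tube and hypothalamus. Its values on day 8 were 0.798 and 4.91 in Aebp2gt/gt cultures, against 171 and 303 in C129 wild-type cultures, a log2 fold change of -5.15 ± 0.476 (SE; adjusted p = 1.54e-06). Both gene-trap cultures lay at the level of their day 0 ES cells, and both wild-type cultures were far above it. Foxc1 acts in head mesenchyme, somites and the anterior eye. It had 11.2 and 10.6 in Aebp2gt/gt cultures and 60.5 and 175 in C129 wild-type cultures, a fold of -2.85 ± 0.516 (SE; adjusted p = 0.000713). The gene-trap duplicates were close to each other, while the wild-type duplicates differed, and both wild-type values were above both gene-trap values. Foxd1 is a gene of the renal stroma, the forebrain and the retina. It was listed at 0 in both Aebp2gt/gt cultures and had 19.8 and 112 in C129 wild-type cultures (adjusted p = 0.00025), so no fold is given. The calls of Foxb1, Foxc1 and Foxd1 were kept with each library left out and under the other alternatives that could be fitted.

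On chromosome 13, the neighbours of Foxc1 were also low in the gene trap but were not called. Foxq1, needed for hair and gastric mucin in the mouse, had 22.3 and 22.1 in Aebp2gt/gt cultures and 84.1 and 59.3 in C129 wild-type cultures, a fold of -1.51 ± 0.542 (SE; adjusted p = 0.0585). Foxf2, a gene of gut and craniofacial mesenchyme, had 4.79 and 2.46 in Aebp2gt/gt cultures, against 12.3 and 10.5 in C129 wild-type cultures, a fold of -1.03 ± 0.360 (SE; adjusted p = 0.0522). For both genes the duplicates of the gene trap lay below those of the wild type. On chromosome 8, Foxf1, a gene of the gut wall and lung mesenchyme, had 3.19 and 0.819 in Aebp2gt/gt cultures and 8.50 and 19.2 in C129 wild-type cultures and was not called (0.0595 as adjusted p).

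Foxd3 and Foxd4 belong to the same subfamily as Foxd1. Foxd3 maintains pluripotent cells of the mouse embryo and later specifies neural crest. Its values were 219 and 316 in Aebp2gt/gt cultures, against 113 and 35.8 in C129 wild-type cultures, a fold of 1.97 ± 0.408 (SE; adjusted p = 0.00213). The gene-trap cultures stood above both wild-type cultures, in which Foxd3 was lower than in any other group of the series. Foxd3 was not called without C129 wild-type replicate 2, with an adjusted p of 0.0555 and a fold of 1.19. Foxd4 is related to a frog factor (Xenopus Foxd4l1) that keeps neural precursors immature. It had 11.96 and 18.8 in Aebp2gt/gt cultures and 35.9 and 69.8 in C129 wild-type cultures, a fold of -1.51 ± 0.517 (SE; adjusted p = 0.0477). Foxd4 was not called without Aebp2gt/gt replicate 1 or 2, without C129 wild-type replicate 2, with a pseudocount of 1, with no filter on low values or after TMM rescaling, with adjusted p values up to 0.315.

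The ovarian regulator Foxl2 and its antisense neighbour Foxl2os moved together. Foxl2os had 8.77 and 11.5 in Aebp2gt/gt cultures and 46.3 and 54.1 in C129 wild-type cultures, a fold of -1.94 ± 0.531 (SE; adjusted p = 0.014). Foxl2 had 0 and 1.64 in Aebp2gt/gt cultures and 5.67 and 12.2 in C129 wild-type cultures, a fold of -1.40 ± 0.403 (SE; adjusted p = 0.019). Foxl2 reached 10 only in replicate 2 of C129 wild-type and of Pali1-/- cells (14.2) on day 8. It was therefore not tested where either of these libraries was left out. In both genes each gene-trap value lay below each wild-type value. The annotated genes share only chr9:98955288-98955299, and without known strand only reads from that stretch cannot be told apart. Foxp2 is a factor of developing neurons, known for its part in human speech and mouse vocal behaviour. It had 38.4 and 65.02 in Aebp2gt/gt cultures, against 196 and 188 in C129 wild-type cultures, a fold of -1.86 ± 0.484 (SE; adjusted p = 0.0103). The wild-type duplicates lay close together, and the gene-trap duplicates lay well below them. Foxm1 switches on genes of the G2 and M phases. Its values were 1326 and 1538 in Aebp2gt/gt cultures and 1827 and 2017 in C129 wild-type cultures, a small fold of -0.43 ± 0.0957 (SE; adjusted p = 0.00371). Without Aebp2gt/gt replicate 1, Foxl2 (adjusted p = 0.169), Foxl2os (0.102), Foxm1 (0.0824) and Foxp2 (0.125) were not called, and without C129 wild-type replicate 2, Foxl2os (0.085), Foxm1 (0.0548) and Foxp2 (0.0521) were not.

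Markers of other cell types moved with these genes between the gene trap and its control on day 8. Of 10 pluripotent cell markers, 8 were higher, and their summed level was 62460 and 56880 in Aebp2gt/gt cultures and 21310 and 14440 in C129 wild-type cultures. Of 6 midbrain-hindbrain markers, 4 were lower, including Wnt1 and En1, with sums of 49.0 and 67.7 in the gene trap and 1540 and 1469 in the wild type, and Pax5 was listed at 0 in both gene-trap cultures. Of 8 tested mesoderm and mesenchyme markers, 3 were lower (Twist1, Hand2 and Pdgfra), with sums over all 10 of 136 and 77.8 in the gene trap, against 595 and 828 in the wild type. Hand2 and Tcf21 were listed at 0 in both gene-trap cultures. In C129 wild-type cultures Hand2 had 9.445 and 27.05, and Tcf21 only 0.9445 and 3.491. Meox2 was listed at 0 in the gene-trap and the C129 wild-type cultures alike. Hand2 reached 10 only in day 8 replicate 2 of C129 and of Pali wild-type cells, so it entered the test only through wild-type cultures. Of 7 neural crest markers, 2 were lower (Pax3 and Tfap2b), with sums of 578 and 590 in the gene trap, against 1237 and 1278 in the wild type, and Tfap2b was listed at 0 in both gene-trap cultures. Of 9 forebrain and neural progenitor markers, 3 were lower, with sums of 6825 and 7917 in the gene trap, against 9492 and 10040 in the wild type. Of 7 definitive endoderm markers, 2 were lower (Foxa2 and Sox17), with sums of 49.5 and 96.8 in the gene trap, against 819 and 1335 in the wild type. Sox17 had 3.98 and 1.93 in Aebp2gt/gt cultures, against 248 and 247 in C129 wild-type cultures, and Foxa2, a relative outside the set, had 12.1 and 13.2 in Aebp2gt/gt cultures, against 266 and 650.3 in C129 wild-type cultures. Of 5 tested primitive streak markers, 2 were lower (Lhx1 and Gsc), with sums over all 6 of 194 and 170 in the gene trap, against 683 and 272 in the wild type. Of 6 tested visceral endoderm and yolk sac markers 0 were called, and of 4 tested endothelial and blood markers 1, Pecam1, was higher. The part of these lists in the forkhead differences was not tested.

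**Figure D2:**
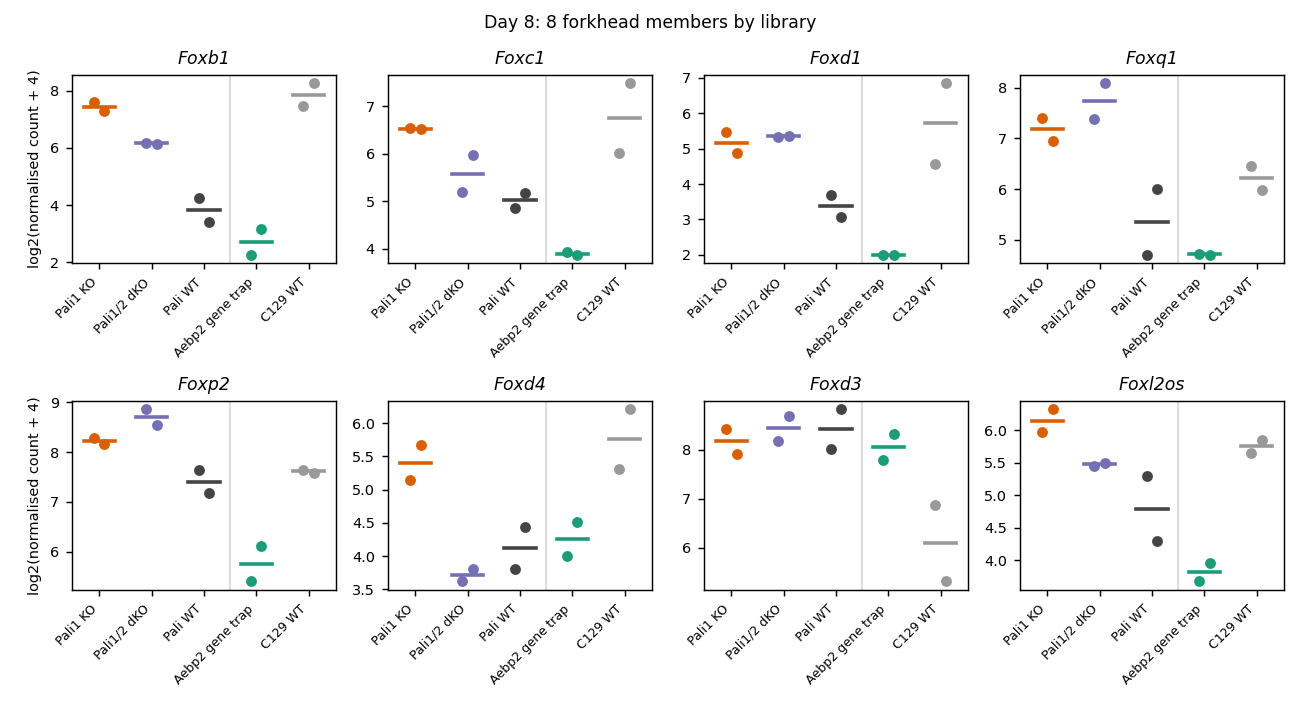
Day 8 values of Foxb1, Foxc1, Foxd1, Foxq1, Foxp2, Foxd4, Foxd3 and Foxl2os in each line (1 panel per gene; vertical axis: log2 of the normalised count + 4; points: libraries; bars: means of the 2 libraries). The Aebp2gt/gt points lie below the C129 wild-type points for Foxb1 (0.798 and 4.91, against 171 and 303) and above them for Foxd3 (219 and 316, against 113 and 35.8).

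On day 8, both Pali mutants had more Foxb1 and Foxq1 RNA than Pali wild-type embryoid bodies. In Pali1-/- cells 3 of the 30 tested members were called (Foxb1 and Foxq1 higher, Foxo1 lower), against 13.6% of all tested genes. In Pali1-/- Pali2-/- cells 2 were called, both higher, against 7.21% of all tested genes. The median over the members was 0.22 in Pali1-/- and 0.01 in Pali1-/- Pali2-/- cells, and over all genes 0.04 and 0.03. Both mutants are set against the same 2 wild-type libraries, so their results are not independent of each other. In Pali1-/- cells only Foxb1 kept its call when either mutant library was left out. In Pali1-/- Pali2-/- cells neither Foxb1 (fold 2.33) nor Foxq1 (2.03) kept its call without mutant replicate 2.

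Foxb1 had 188 and 153 in Pali1-/-, 67.9 and 66.99 in Pali1-/- Pali2-/- and 15.1 and 6.67 in Pali wild-type cultures. All 4 mutant values lay above both wild-type values, and the single mutant stood above the double mutant. The fold was 3.61 ± 0.476 (SE; adjusted p = 9.89e-05) in Pali1-/- cells and 2.33 ± 0.476 (SE; adjusted p = 0.00753) in Pali1-/- Pali2-/- cells. The call in Pali1-/- cells was kept with each library left out and under the other alternatives that could be fitted. In Pali1-/- Pali2-/- cells Foxb1 was not called without Pali1-/- Pali2-/- replicate 1 or 2, without Pali wild-type replicate 2 or with a pseudocount of 1, with adjusted p values up to 0.099. Foxb1 is overlapped on the other strand by B230323A14Rik, and Foxq1 by A530084C06Rik. Without known strand, reads from the shared stretch of either pair cannot be told apart.

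Foxq1 had 166 and 119.9 in Pali1-/-, 163 and 269 in Pali1-/- Pali2-/- and 22.1 and 60.01 in Pali wild-type cultures. The mutant and wild-type values did not overlap, though the wild-type duplicates differed more than the single-mutant duplicates. The fold was 1.83 ± 0.542 (SE; adjusted p = 0.0311) in Pali1-/- cells and 2.39 ± 0.542 (SE; adjusted p = 0.0133) in Pali1-/- Pali2-/- cells. In Pali1-/- cells Foxq1 was not called without Pali1-/- replicate 1 or 2, without Pali wild-type replicate 1 or with a pseudocount of 1, with adjusted p values up to 0.28. In Pali1-/- Pali2-/- cells Foxq1 was not called without Pali1-/- Pali2-/- replicate 2 or without Pali wild-type replicate 1, with adjusted p values up to 0.129. Its neighbour Foxc1 had 89.2 and 87.4 in Pali1-/-, 32.4 and 59.2 in Pali1-/- Pali2-/- and 25.1 and 32.2 in Pali wild-type cultures, with a fold of 1.51 ± 0.516 (SE; adjusted p = 0.0617) in Pali1-/- cells and 0.56 ± 0.516 (SE; adjusted p = 0.597) in Pali1-/- Pali2-/- cells. Foxf2, which lies between them, had 11.96 and 14.2 in Pali1-/-, 11.5 and 17.9 in Pali1-/- Pali2-/- and 5.02 and 12.2 in Pali wild-type cultures, and was not called either. In this chromosome 13 group Foxq1 passed the threshold in the Pali mutants and Foxc1 in the gene trap. Foxc1 in Pali1-/- cells lay near the threshold, and the neighbours were not tested against each other.

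Foxd1 had 40.2 and 25.4 in Pali1-/-, 36.5 and 36.8 in Pali1-/- Pali2-/- and 9.03 and 4.45 in Pali wild-type cultures. All mutant values were above the wild-type values, but the fold of 1.78 ± 0.594 (SE; adjusted p = 0.0553) in Pali1-/- cells and of 1.96 ± 0.594 (SE; adjusted p = 0.0544) in Pali1-/- Pali2-/- cells just missed the threshold. Foxo1, which insulin signalling excludes from the nucleus, was the member that fell in Pali1-/- cells. It had 869 and 751 in Pali1-/- and 1098 and 1210 in Pali wild-type cultures, a fold of -0.51 ± 0.166 (SE; adjusted p = 0.0488). The groups did not overlap. Foxo1 was not called without Pali1-/- replicate 1 or 2, without Pali wild-type replicate 1 or 2, with a pseudocount of 1 or with no filter on low values, with adjusted p values up to 0.297. Foxd3 had 340.4 and 237 in Pali1-/-, 286 and 409.7 in Pali1-/- Pali2-/- and 255 and 449 in Pali wild-type cultures, with overlapping groups in both comparisons and no call.

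Here too, several marker lists moved with the forkhead genes. Of 6 midbrain-hindbrain markers, 5 were higher in Pali1-/- and 2 in Pali1-/- Pali2-/- cells, with sums of 2565 and 3380 in the single mutant and 807 and 674 in the double mutant, against 216 and 135 in Pali wild-type cells. Of 10 pluripotent cell markers, 6 were lower in Pali1-/- cells (sums 29920 and 25110) and 5 in Pali1-/- Pali2-/- cells (36750 and 34370), against 64680 and 52490 in Pali wild-type cells. Of 5 tested primitive streak markers, 4 were higher in each mutant, with sums over all 6 of 1575 and 1170 in Pali1-/-, 1088 and 2747 in Pali1-/- Pali2-/- and 494 and 432 in Pali wild-type cells, in which Mesp1 was listed at 0. Of 7 definitive endoderm markers, 2 (Foxa2 and Sox17) were higher in each mutant, with sums of 1368 and 1059 in Pali1-/-, 745 and 1490 in Pali1-/- Pali2-/- and 75.5 and 274 in Pali wild-type cells. Neural crest markers Pax3 and Tfap2b, 2 of 7, were also higher in each mutant, with sums over the 7 of 1424 and 1686 in Pali1-/-, 1164 and 1043 in Pali1-/- Pali2-/- and 671 and 461 in Pali wild-type cells. Visceral endoderm markers summed to 202 in Pali wild-type replicate 1 and to 12320 in replicate 2, against 149 to 549 in the mutants. Forebrain and neural progenitor markers went both ways in Pali1-/- against Pali wild-type cells. Sox1 had 3338 and 3554, against 1315 and 1023, and Lhx2 had 11.7 and 19.9, against 107 and 76.4. Counts of the forebrain, mesoderm and endothelial lists are not given for the Pali mutants. The part of these lists in the forkhead differences was not tested. Foxa2 had 748 and 593 in Pali1-/-, 334 and 784 in Pali1-/- Pali2-/- and 49.5 and 57.1 in Pali wild-type cells, while the third FoxA gene, Foxa3, had 51.1 and 49.8 in Pali1-/-, 39.7 and 46.9 in Pali1-/- Pali2-/- and 64.2 and 88.9 in Pali wild-type cultures and was not called in either comparison.

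**Figure D3:**
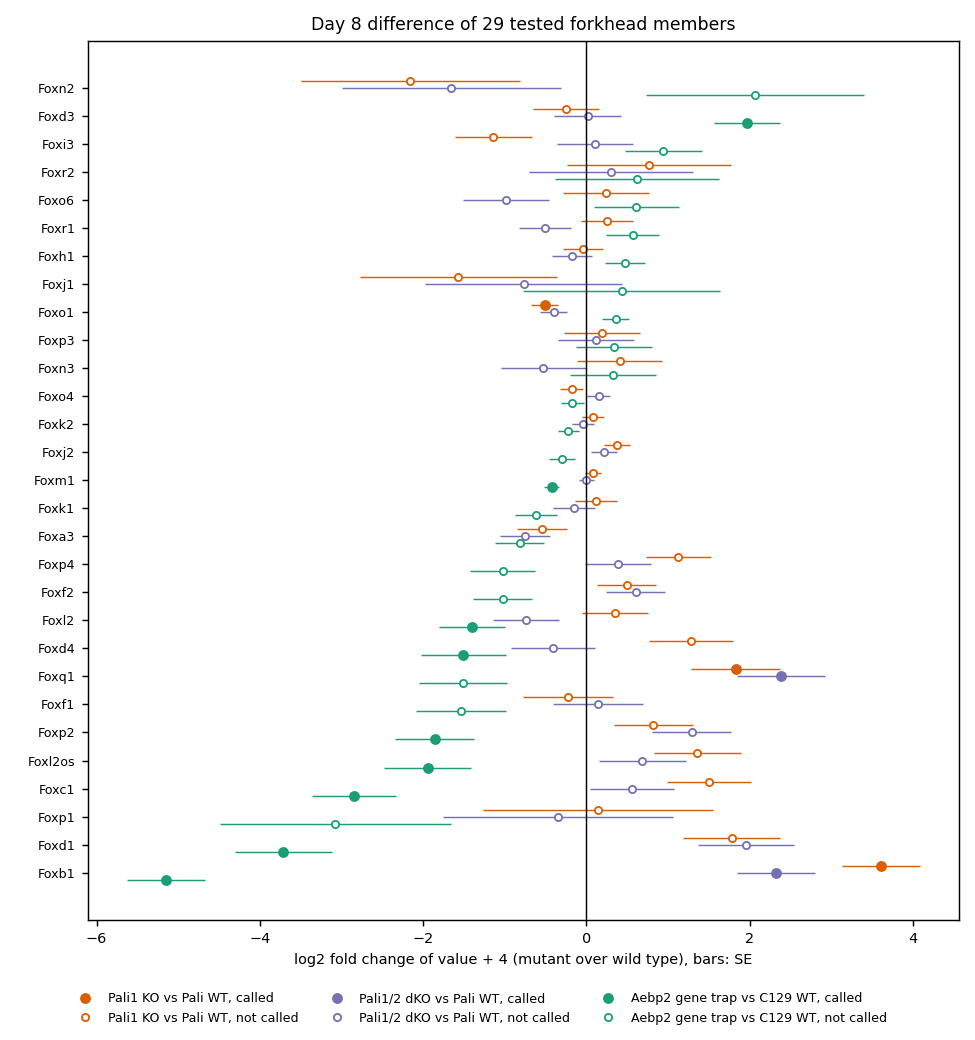
Day 8 difference of 29 tested members (rows) in Pali1-/- and Pali1-/- Pali2-/- cells over Pali wild-type cells and in Aebp2gt/gt cells over C129 wild-type cells (horizontal axis: log2 fold change of value + 4; bars: SE; filled points: called). The gene-trap point for Foxb1 lies at -5.15 and the Pali points at 3.61 and 2.33; the gene-trap point for Foxd1 is a fitted value with the gene trap listed at 0, and is no bound.

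Whether the day 8 effects of the Pali mutants differed from that of the gene trap was tested directly, as a difference of differences. Between Pali1-/- and Aebp2gt/gt cells, 15 of the 30 tested members differed, against 28.5% of all tested genes. Between Pali1-/- Pali2-/- and Aebp2gt/gt cells, 10 differed, against 24.0%. For Foxb1 the difference was 8.76 ± 0.673 (SE; adjusted p = 8.43e-08) with Pali1-/- and 7.47 ± 0.673 (SE; adjusted p = 1.03e-06) with Pali1-/- Pali2-/- cells. For Foxc1 it was 4.36 ± 0.730 (SE; adjusted p = 0.000202) and 3.41 ± 0.730 (SE; adjusted p = 0.0022) in the same order, although Foxc1 was called in neither Pali mutant alone. Foxq1 differed by 3.34 ± 0.767 (SE; adjusted p = 0.00297) and 3.90 ± 0.767 (SE; adjusted p = 0.00114). Foxp2 differed by 2.68 ± 0.684 (SE; adjusted p = 0.00649) and 3.15 ± 0.684 (SE; adjusted p = 0.00248). Foxd3 differed the other way, by -2.22 ± 0.577 (SE; adjusted p = 0.00749) and -1.95 ± 0.577 (SE; adjusted p = 0.0199), the second of which was lost without any 1 of 4 libraries (Pali1-/- Pali2-/- replicate 1, Pali wild-type replicate 2, Aebp2gt/gt replicate 2 or C129 wild-type replicate 2; adjusted p up to 0.122). The gene trap and the Pali mutants have different wild-type controls, whose own day 8 levels of Foxb1, Foxc1, Foxd1 and Foxd3 differed, as given with the comparison of the wild types.

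At day 0 and day 4, few members differed between mutants and wild types. Pali1-/- ES cells had 0 members called by limma (3 at an unadjusted p under 0.05), against 4.79% of all tested genes, and Pali1-/- day 4 cells had 1, against 2.67%. Pali1-/- Pali2-/- ES cells had 1, against 3.67%, and Pali1-/- Pali2-/- day 4 cells had 0 (3 at an unadjusted p under 0.05), against 2.07%. Aebp2gt/gt ES cells had 1, against 13.0%, and Aebp2gt/gt day 4 cells had 0 (7 at an unadjusted p under 0.05), against 9.01%. Foxi3, a gene of ear, pharyngeal arch and hair development, was higher in Pali1-/- Pali2-/- ES cells, with 54.8 and 57.5 in Pali1-/- Pali2-/- and 6.58 and 12.8 in Pali wild-type cultures and a fold of 2.17 ± 0.467 (SE; adjusted p = 0.0125). Foxi3 was not called without Pali1-/- Pali2-/- replicate 1 or 2 or without Pali wild-type replicate 1, with adjusted p values up to 0.133. Foxj2 was higher in Aebp2gt/gt ES cells, with 249 and 199.8 in Aebp2gt/gt and 147 and 124 in C129 wild-type cultures and a fold of 0.70 ± 0.158 (SE; adjusted p = 0.00642). Foxj2 was not called without Aebp2gt/gt replicate 1 or without C129 wild-type replicate 2, with adjusted p values up to 0.0755. Foxd4 was lower in Pali1-/- day 4 cells, with 7.74 and 3.51 in Pali1-/- and 49.9 and 38.4 in Pali wild-type cultures and a fold of -2.35 ± 0.517 (SE; adjusted p = 0.0183). Foxd4 was not called without Pali1-/- replicate 1 or 2 or without Pali wild-type replicate 1 or 2, with adjusted p values up to 0.183. None of these groups overlapped. Leaving out Pali1-/- day 0 replicate 1 gave 1 call in Pali1-/- ES cells, and leaving out Pali wild-type day 4 replicate 2 gave 1 in Pali1-/- Pali2-/- day 4 cells.

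Set directly against Pali1-/- cells, Pali1-/- Pali2-/- cells differed in 2 tested members at day 0 (3.07% of all tested genes) and in 0 at day 4 (1.38%) and day 8 (1.37%) by limma, with 7 members at an unadjusted p under 0.05 at each of these days. Foxi3 had 54.8 and 57.5 in Pali1-/- Pali2-/- and 6.20 and 13.9 in Pali1-/- cultures, a fold of 2.15 ± 0.467 (SE; adjusted p = 0.0169). Foxr1 had 14.2 and 10.5 in Pali1-/- Pali2-/- and 49.6 and 32.9 in Pali1-/- cultures, a fold of -1.45 ± 0.320 (SE; adjusted p = 0.0189). The double mutant was thus higher in Foxi3 and lower in Foxr1, without overlap. Foxi3 was not called without Pali1-/- replicate 1 or without Pali1-/- Pali2-/- replicate 1 or 2, with adjusted p values up to 0.234. Foxr1 was not called without Pali1-/- replicate 1 or without Pali1-/- Pali2-/- replicate 2, with adjusted p values up to 0.248. For Foxb1 on day 8, where the single mutant was higher, the difference was -1.28 ± 0.476 (SE; adjusted p = 0.255). Without Pali1-/- Pali2-/- day 8 replicate 2, 1 member was called on day 8.

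Over the course of differentiation, forkhead members were called against day 0 in each line on both day 4 and day 8. On day 4, 7 of the 30 tested members were called against day 0 in every line, where 30.5% of all genes were called in Pali1-/-, 27.5% in Pali1-/- Pali2-/-, 27.3% in Pali wild-type, 30.6% in Aebp2gt/gt and 29.1% in C129 wild-type cells. Foxh1, Foxj2, Foxo4 and Foxp2, 4 members, were higher on day 4 in all 5 lines, and Foxd4 and Foxi3 were in 4. On day 8, 16 members were called in Pali1-/- cells (42.1% of all genes), 11 in Pali1-/- Pali2-/- (30.9%), 11 in Pali wild-type (25.8%), 8 in Aebp2gt/gt (31.3%) and 16 in C129 wild-type cells (45.8%). Of these, 16, 10, 11, 7 and 14 were higher, where 22.0%, 16.7%, 14.0%, 16.3% and 23.4% of all genes were, in the same order of lines. Lower members numbered 0, 1, 0, 1 and 2, where 20.1%, 14.2%, 11.7%, 14.9% and 22.4% of all genes were lower. Foxb1, Foxf2 and Foxl2 reached 10 only in day 8 libraries and so entered the test through day 8. Members near 0 at day 0, such as Foxb1 and Foxd4, had little room to be called lower. The counts by direction were thus partly set by the filter. Foxd4, Foxj2, Foxp2 and Foxq1 were higher on day 8 in all 5 lines, and Foxb1, Foxc1 and Foxo4 in 4. Foxf1, Foxj1, Foxn2, Foxn3 and Foxp3 were called in none of the 10 course comparisons. With 1 library left out, the day 4 count fell to 3 in Pali1-/- Pali2-/- (without day 0 replicate 1 or 2), to 3 and 4 in Aebp2gt/gt (without day 0 replicate 2 and without day 4 replicate 1) and to 4 in C129 wild-type cells (without day 0 replicate 2). The day 8 count fell to 10 in Pali1-/- (without day 8 replicate 2), to 7 in Pali1-/- Pali2-/- (without day 0 replicate 1), to 4 in Pali wild-type (without day 8 replicate 2) and to 3 in Aebp2gt/gt cells (without day 0 replicate 2; 5 without either day 8 replicate).

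**Figure D4:**
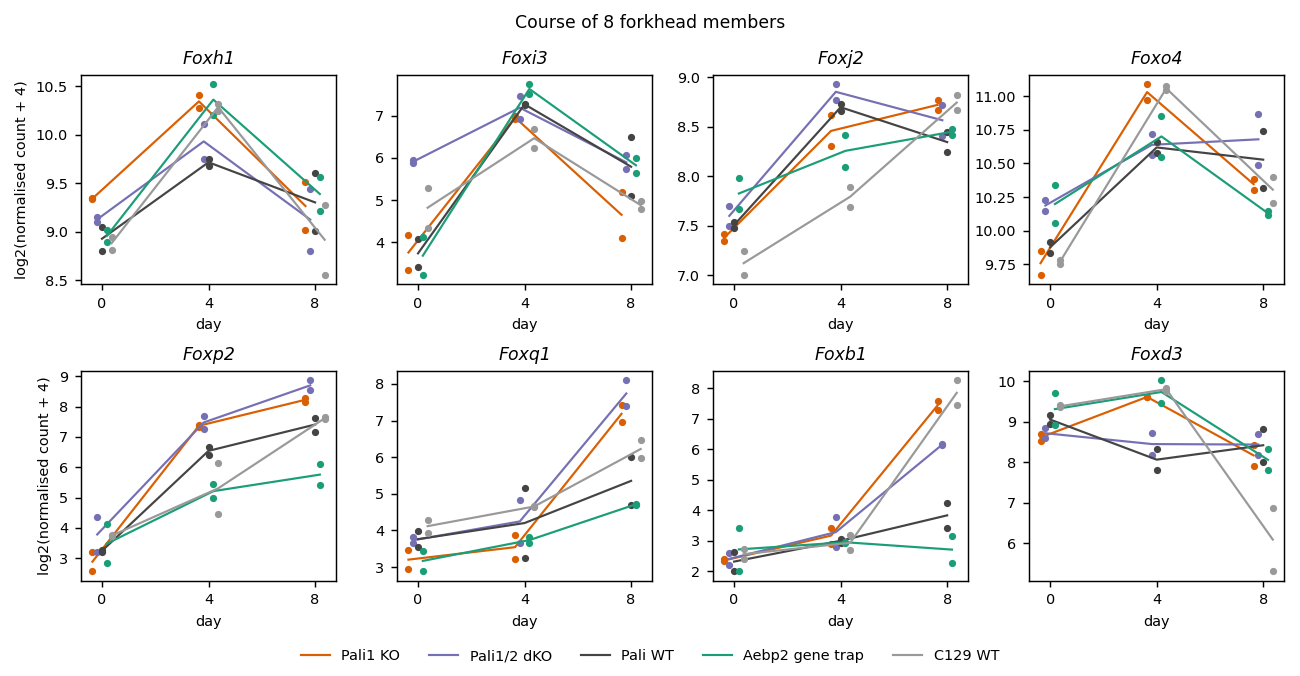
Course of Foxh1, Foxi3, Foxj2, Foxo4, Foxp2, Foxq1, Foxb1 and Foxd3 (panels) over day 0, day 4 and day 8 (horizontal axis; vertical axis: log2 of the normalised count + 4) in the 5 lines; points are libraries and lines join the means. Foxh1 and Foxi3 are highest on day 4 in each line, and Foxp2 and Foxq1 are higher on day 8 than on day 0 in each line.

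FoxH1 brings SMAD proteins to DNA when Nodal signals, in the anterior primitive streak. At day 0 Foxh1 had 649.7 and 641 in Pali1-/-, 566 and 546 in Pali1-/- Pali2-/-, 527 and 443 in Pali wild-type, 514 and 473 in Aebp2gt/gt and 491 and 446 in C129 wild-type cultures. On day 4 Foxh1 had 1362 and 1236 in Pali1-/-, 1102 and 859.9 in Pali1-/- Pali2-/-, 861 and 816 in Pali wild-type, 1175 and 1469 in Aebp2gt/gt and 1276 and 1215 in C129 wild-type cultures. On day 8 Foxh1 had 725 and 516 in Pali1-/-, 444 and 693 in Pali1-/- Pali2-/-, 509.7 and 773 in Pali wild-type, 589 and 755 in Aebp2gt/gt and 618 and 373 in C129 wild-type cultures. All 10 day 4 values lay above all day 0 values, and on day 8 the lines were back near their day 0 range. Foxh1 had log2 fold changes from day 0 to day 4 of 1.00 in Pali1-/-, 0.80 in Pali1-/- Pali2-/-, 0.79 in Pali wild-type, 1.41 in Aebp2gt/gt and 1.40 in C129 wild-type cells, with an SE of 0.247 and an adjusted p of 0.0236 or less in each. Foxh1 was not called in Pali1-/- Pali2-/- cultures without day 0 replicate 1 or 2 or day 4 replicate 1 (adjusted p up to 0.163); or in Pali wild-type cultures without day 0 replicate 2 or day 4 replicate 1 or 2 (adjusted p up to 0.145). Among 12 Nodal-SMAD partners and targets of FoxH1, 3, 5, 4, 4 and 4 were higher and 4, 2, 3, 3 and 1 lower on day 4, in the order of lines above. The receptor gene Acvr2b and Smad3 were among the higher genes and the co-receptor gene Tdgf1 among the lower genes of each line.

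At day 0 Foxi3 had 6.20 and 13.9 in Pali1-/-, 54.8 and 57.5 in Pali1-/- Pali2-/-, 6.58 and 12.8 in Pali wild-type, 13.6 and 5.38 in Aebp2gt/gt and 35.2 and 16.3 in C129 wild-type cultures. On day 4 Foxi3 had 123 and 117 in Pali1-/-, 171 and 117 in Pali1-/- Pali2-/-, 149.5 and 150.4 in Pali wild-type, 179 and 211 in Aebp2gt/gt and 71.4 and 99.3 in C129 wild-type cultures. On day 8 Foxi3 had 32.6 and 13.2 in Pali1-/-, 49.1 and 62.5 in Pali1-/- Pali2-/-, 30.1 and 85.6 in Pali wild-type, 46.3 and 59.8 in Aebp2gt/gt and 27.4 and 23.6 in C129 wild-type cultures. In Pali1-/-, Pali wild-type and Aebp2gt/gt cells day 4 stood far above day 0, while Pali1-/- Pali2-/- ES cells already had more. Foxi3 had log2 fold changes from day 0 to day 4 of 3.20 in Pali1-/-, 3.53 in Pali wild-type, 3.95 in Aebp2gt/gt and 1.65 in C129 wild-type cells, with an SE of 0.467 and an adjusted p of 0.0123 or less in each. Foxi3 was not called in C129 wild-type cultures without day 0 replicate 2 or day 4 replicate 2 (adjusted p up to 0.146). In Pali1-/- Pali2-/- cells the fold was 1.28 ± 0.467 (SE; adjusted p = 0.0503) and was not called. Day 8 was still above day 0 in Pali wild-type (2.05) and Aebp2gt/gt cells (2.14), though not in Pali wild-type cells without day 8 replicate 2 (adjusted p = 0.0778).

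At day 0 Foxp2 had 5.19 and 1.95 in Pali1-/-, 5.31 and 16.4 in Pali1-/- Pali2-/-, 5.73 and 5.24 in Pali wild-type, 13.3 and 3.22 in Aebp2gt/gt and 9.21 and 9.58 in C129 wild-type cultures. On day 4 Foxp2 had 157 and 166 in Pali1-/-, 149.8 and 202 in Pali1-/- Pali2-/-, 98.6 and 80.4 in Pali wild-type, 27.6 and 39.5 in Aebp2gt/gt and 18.1 and 66.6 in C129 wild-type cultures. On day 8 Foxp2 had 308 and 283 in Pali1-/-, 461 and 368 in Pali1-/- Pali2-/-, 195 and 141 in Pali wild-type, 38.4 and 65.02 in Aebp2gt/gt and 196 and 188 in C129 wild-type cultures. The day 4 and day 8 values lay above the day 0 values within each line, and Aebp2gt/gt cells had the lowest day 8 values. Foxp2 had log2 fold changes from day 0 to day 4 of 4.48 in Pali1-/-, 3.69 in Pali1-/- Pali2-/-, 3.30 in Pali wild-type, 1.73 in Aebp2gt/gt and 1.56 in C129 wild-type cells, with an SE of 0.484 and an adjusted p of 0.0208 or less in each. Foxp2 had log2 fold changes from day 0 to day 8 of 5.34 in Pali1-/-, 4.92 in Pali1-/- Pali2-/-, 4.16 in Pali wild-type, 2.28 in Aebp2gt/gt and 3.87 in C129 wild-type cells, with an SE of 0.484 and an adjusted p of 0.00148 or less in each. On day 4 Foxp2 was not called in Aebp2gt/gt cultures without day 0 replicate 2 or day 4 replicate 2 (adjusted p up to 0.169); or in C129 wild-type cultures without day 0 replicate 1 or 2 or day 4 replicate 2 (adjusted p up to 0.345).

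At day 0 Foxq1 had 3.72 and 6.97 in Pali1-/-, 10.1 and 8.49 in Pali1-/- Pali2-/-, 7.67 and 11.8 in Pali wild-type, 3.39 and 6.92 in Aebp2gt/gt and 11.3 and 15.6 in C129 wild-type cultures. On day 4 Foxq1 had 10.7 and 5.26 in Pali1-/-, 8.65 and 24.4 in Pali1-/- Pali2-/-, 5.44 and 31.8 in Pali wild-type, 10.2 and 8.53 in Aebp2gt/gt and 20.9 and 21.4 in C129 wild-type cultures. All these values lay below the day 8 values of the Pali mutants, and the day 8 values given above exceeded the day 0 values of the same line. Foxq1 had log2 fold changes from day 0 to day 8 of 3.98 in Pali1-/-, 4.01 in Pali1-/- Pali2-/-, 1.59 in Pali wild-type, 1.55 in Aebp2gt/gt and 2.11 in C129 wild-type cells, with an SE of 0.542 and an adjusted p of 0.0384 or less in each. Foxq1 was not called in Pali wild-type cultures without day 0 replicate 1 or 2 or day 8 replicate 2 (adjusted p up to 0.346); or in Aebp2gt/gt cultures without day 0 replicate 1 or 2 or day 8 replicate 1 or 2 (adjusted p up to 0.189).

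At day 0 Foxb1 had 1.24 and 0.996 in Pali1-/-, 2.03 and 0.653 in Pali1-/- Pali2-/-, 2.19 and 0 in Pali wild-type, 6.79 and 0 in Aebp2gt/gt and 1.26 and 2.61 in C129 wild-type cultures. On day 4 Foxb1 had 6.78 and 3.51 in Pali1-/-, 2.88 and 9.77 in Pali1-/- Pali2-/-, 3.63 and 4.39 in Pali wild-type, 3.81 and 3.65 in Aebp2gt/gt and 2.46 and 5.03 in C129 wild-type cultures. No line exceeded 10 before day 8. Foxb1 had log2 fold changes from day 0 to day 8 of 5.09 in Pali1-/-, 3.75 in Pali1-/- Pali2-/-, 1.52 in Pali wild-type and 5.30 in C129 wild-type cells, with an SE of 0.476 and an adjusted p of 0.0257 or less in each. Foxb1 was not called in Pali wild-type cultures without day 0 replicate 2 or day 8 replicate 1 (adjusted p up to 0.21). In Aebp2gt/gt cells it was -0.01 ± 0.476 (SE; adjusted p = 1) and was not called. The change from day 0 to day 8 in Pali1-/- minus that in Pali wild-type cells was 3.57 ± 0.673 (SE; adjusted p = 0.0064), and Foxb1 was the 1 member called in this test (5.73% of all genes), though not with a pseudocount of 1 (adjusted p = 0.0805). The same test for Pali1-/- Pali2-/- cells had 0 members called by limma (5 at an unadjusted p under 0.05), against 1.12%. In Aebp2gt/gt minus C129 wild-type cells it was -5.30 ± 0.673 (SE; adjusted p = 9.55e-05), 1 of 7 members called (15.3% of all genes; 4 without Aebp2gt/gt day 8 replicate 2 and 3 without C129 wild-type day 8 replicate 2).

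At day 0 Foxc1 had 8.68 and 2.99 in Pali1-/-, 8.11 and 10.5 in Pali1-/- Pali2-/-, 3.29 and 4.27 in Pali wild-type, 2.26 and 3.84 in Aebp2gt/gt and 10.1 and 7.82 in C129 wild-type cultures. On day 4 Foxc1 had 17.4 and 16.7 in Pali1-/-, 9.61 and 26.4 in Pali1-/- Pali2-/-, 4.53 and 14.3 in Pali wild-type, 2.54 and 0 in Aebp2gt/gt and 3.70 and 11.3 in C129 wild-type cultures. Before day 8 all lines were low, with 1 double-mutant culture of day 4 the highest. Foxc1 had log2 fold changes from day 0 to day 8 of 3.29 in Pali1-/-, 1.86 in Pali1-/- Pali2-/-, 2.06 in Pali wild-type and 3.06 in C129 wild-type cells, with an SE of 0.516 and an adjusted p of 0.0105 or less in each. Foxc1 was not called in Pali1-/- Pali2-/- cultures without day 0 replicate 1 or day 8 replicate 2 (adjusted p up to 0.111); or in Pali wild-type cultures without day 8 replicate 2 (adjusted p up to 0.0522). Aebp2gt/gt cells were not called (fold 1.09 ± 0.516 (SE; adjusted p = 0.124)).

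At day 0 Foxd1 had 0 and 1.99 in Pali1-/-, 2.03 and 4.57 in Pali1-/- Pali2-/-, 3.29 and 7.48 in Pali wild-type, 4.52 and 12.3 in Aebp2gt/gt and 16.4 and 13.03 in C129 wild-type cultures. On day 4 Foxd1 had 2.90 and 3.51 in Pali1-/-, 2.88 and 7.82 in Pali1-/- Pali2-/-, 2.72 and 4.39 in Pali wild-type, 0 and 3.65 in Aebp2gt/gt and 16.01 and 5.03 in C129 wild-type cultures. C129 wild-type ES cells had the highest day 0 pair, and no line was called on day 4. Foxd1 had log2 fold changes from day 0 to day 8 of 2.88 in Pali1-/-, 2.50 in Pali1-/- Pali2-/- and 1.50 in C129 wild-type cells, with an SE of 0.594 and an adjusted p of 0.0482 or less in each. Foxd1 was not called in C129 wild-type cultures without day 0 replicate 1 or 2 or day 8 replicate 2 or with a pseudocount of 1 or with no filter on low values (adjusted p up to 0.681). In Pali wild-type cells the fold was 0.20 ± 0.594 (SE; adjusted p = 0.872).

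At day 0 Foxd4 had 0 and 0.996 in Pali1-/-, 0 and 0.653 in Pali1-/- Pali2-/-, 0 and 1.07 in Pali wild-type, 0 and 0 in Aebp2gt/gt and 1.26 and 0 in C129 wild-type cultures. On day 4 Foxd4 had 7.74 and 3.51 in Pali1-/-, 11.5 and 43 in Pali1-/- Pali2-/-, 49.9 and 38.4 in Pali wild-type, 15.2 and 2.44 in Aebp2gt/gt and 13.6 and 10.1 in C129 wild-type cultures. On day 8 Foxd4 had 31.5 and 46.7 in Pali1-/-, 8.35 and 10.1 in Pali1-/- Pali2-/-, 10.03 and 17.8 in Pali wild-type, 11.96 and 18.8 in Aebp2gt/gt and 35.9 and 69.8 in C129 wild-type cultures. At day 0 the gene was listed at 0 or near 1 in all libraries, so folds of single lines rest on the added constant. Foxd4 had log2 fold changes from day 0 to day 4 of 2.65 in Pali1-/- Pali2-/-, 3.41 in Pali wild-type and 1.78 in C129 wild-type cells, with an SE of 0.517 and an adjusted p of 0.0143 or less in each. On day 4 Foxd4 was not called in C129 wild-type cultures without day 0 replicate 2 or day 4 replicate 1 (adjusted p up to 0.0924). Foxd4 was also called on day 4 in Aebp2gt/gt cells, which were listed at 0 at day 0 (adjusted p = 0.0379), but not without day 0 replicate 1 or 2 or day 4 replicate 1 (adjusted p up to 0.431). Foxd4 had log2 fold changes from day 0 to day 8 of 3.25 in Pali1-/-, 1.61 in Pali1-/- Pali2-/-, 1.96 in Pali wild-type and 3.57 in C129 wild-type cells, with an SE of 0.517 and an adjusted p of 0.0241 or less in each. On day 8 Aebp2gt/gt cells were called too (adjusted p = 0.00266). On day 8 Foxd4 was not called in Pali1-/- Pali2-/- cultures without day 0 replicate 1 or 2 or day 8 replicate 1 or 2 (adjusted p up to 0.119); or in Pali wild-type cultures without day 0 replicate 1 or day 8 replicate 2 (adjusted p up to 0.0887).

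At day 0 Foxd3 had 365 and 411 in Pali1-/-, 382 and 454 in Pali1-/- Pali2-/-, 489.9 and 567 in Pali wild-type, 476 and 835 in Aebp2gt/gt and 650.4 and 673 in C129 wild-type cultures. On day 4 Foxd3 had 783 and 773 in Pali1-/-, 415 and 287 in Pali1-/- Pali2-/-, 218 and 318 in Pali wild-type, 696 and 1032 in Aebp2gt/gt and 914 and 864 in C129 wild-type cultures. No library of any stage was below the 35.8 of the lower C129 wild-type day 8 culture. Day 8 fell against day 0 by 1.25 on the log2 scale in Aebp2gt/gt (adjusted p = 0.0263) and by 3.28 in C129 wild-type cells (adjusted p = 3.73e-06). Foxd3 was not called in Aebp2gt/gt cells without day 0 replicate 2 or day 8 replicate 1 (adjusted p up to 0.243), and kept its call in C129 wild-type cells with each library left out. In the Pali lines the folds were -0.44 in Pali1-/- (adjusted p = 0.418), -0.28 in Pali1-/- Pali2-/- (0.659) and -0.63 in Pali wild-type cells (0.292). The change in Aebp2gt/gt minus that in C129 wild-type cells was 2.03 ± 0.577 (SE; adjusted p = 0.024), and it was lost without Aebp2gt/gt day 0 replicate 1 or day 8 replicate 2, or C129 wild-type day 0 replicate 1 or 2 or day 8 replicate 2 (adjusted p up to 0.136).

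Foxl2os had 3.72 and 4.98 in Pali1-/-, 11.2 and 4.57 in Pali1-/- Pali2-/-, 13.2 and 3.21 in Pali wild-type, 11.3 and 6.15 in Aebp2gt/gt and 16.4 and 3.26 in C129 wild-type cultures at day 0. Foxl2os had log2 fold changes from day 0 to day 8 of 3.09 in Pali1-/-, 1.96 in Pali1-/- Pali2-/- and 2.15 in C129 wild-type cells, with an SE of 0.531 and an adjusted p of 0.00887 or less in each. Foxl2os was not called in Pali1-/- Pali2-/- cultures without day 0 replicate 2 (adjusted p up to 0.0924); or in C129 wild-type cultures without day 0 replicate 2 (adjusted p up to 0.0713). Foxl2 was listed at 0 in 9 of the 10 day 0 libraries. It was called on day 8 in Pali1-/- (adjusted p = 0.000863), Pali wild-type (0.00762) and C129 wild-type cells (0.00438). Foxl2 reached 10 only in day 8 replicate 2 of Pali1-/- (14.2) and of C129 wild-type cells (12.2). The filter thus let it in through groups that were then called higher. On day 8 Foxl2 had 8.70 and 14.2 in Pali1-/-, 4.18 and 2.23 in Pali1-/- Pali2-/- and 7.02 and 8.89 in Pali wild-type cultures, and in Pali wild-type cells it was not called without day 8 replicate 2 (adjusted p = 0.0568).

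FoxO factors keep cells quiescent and resistant to stress when insulin signalling is low. At day 0 Foxo4 had 812 and 916 in Pali1-/-, 1127 and 1198 in Pali1-/- Pali2-/-, 909.6 and 964 in Pali wild-type, 1061 and 1292 in Aebp2gt/gt and 859 and 875 in C129 wild-type cultures. On day 4 Foxo4 had 2002 and 2175 in Pali1-/-, 1678 and 1506 in Pali1-/- Pali2-/-, 1527 and 1611 in Pali wild-type, 1491 and 1848 in Aebp2gt/gt and 2149 and 2105 in C129 wild-type cultures. On day 8 Foxo4 had 1335 and 1261 in Pali1-/-, 1435 and 1864 in Pali1-/- Pali2-/-, 1270 and 1707 in Pali wild-type, 1105 and 1128 in Aebp2gt/gt and 1348 and 1180 in C129 wild-type cultures. Every day 4 value exceeded every day 0 value of its line, and on day 8 the duplicates lay further apart in Pali1-/- Pali2-/- and Pali wild-type cultures. Foxo4 had log2 fold changes from day 0 to day 4 of 1.27 in Pali1-/-, 0.45 in Pali1-/- Pali2-/-, 0.74 in Pali wild-type, 0.50 in Aebp2gt/gt and 1.29 in C129 wild-type cells, with an SE of 0.142 and an adjusted p of 0.0246 or less in each. On day 4 Foxo4 was not called in Pali1-/- Pali2-/- cultures without day 0 replicate 1 or 2 or day 4 replicate 1 (adjusted p up to 0.155); or in Aebp2gt/gt cultures without day 0 replicate 1 or day 4 replicate 2 (adjusted p up to 0.149). Foxo4 had log2 fold changes from day 0 to day 8 of 0.59 in Pali1-/-, 0.49 in Pali1-/- Pali2-/-, 0.65 in Pali wild-type and 0.54 in C129 wild-type cells, with an SE of 0.142 and an adjusted p of 0.0133 or less in each. On day 8 Foxo4 was not called in Pali1-/- Pali2-/- cultures without day 0 replicate 1 or day 8 replicate 2 (adjusted p up to 0.198); in Pali wild-type cultures without day 8 replicate 2 (adjusted p up to 0.0627); or in C129 wild-type cultures without day 8 replicate 1 (adjusted p up to 0.0517).

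At day 0 Foxo1 had 658 and 745 in Pali1-/-, 881 and 947 in Pali1-/- Pali2-/-, 854 and 841 in Pali wild-type, 654 and 623 in Aebp2gt/gt and 798 and 625 in C129 wild-type cultures. On day 4 Foxo1 had 1176 and 1172 in Pali1-/-, 790.1 and 739 in Pali1-/- Pali2-/-, 1206 and 769.5 in Pali wild-type, 988 and 936 in Aebp2gt/gt and 1368 and 1115 in C129 wild-type cultures. Day 4 was above day 0 in Pali1-/-, Aebp2gt/gt and C129 wild-type cells, and in Pali1-/- Pali2-/- cells the day 4 values were the lower ones, without a call. Foxo1 had log2 fold changes from day 0 to day 4 of 0.74 in Pali1-/-, 0.59 in Aebp2gt/gt and 0.80 in C129 wild-type cells, with an SE of 0.166 and an adjusted p of 0.0113 or less in each. Foxo1 was not called in Aebp2gt/gt cultures without day 0 replicate 2 or day 4 replicate 1 (adjusted p up to 0.0674). Foxo6 lay between 6.11 and 49.9 except for a value of 0 in 1 Pali1-/- Pali2-/- day 8 library, and fell on day 8 in C129 wild-type cells to 14.2 and 6.11, against 45.3 and 32.6 at day 0, a fold of -1.65 ± 0.525 (SE; adjusted p = 0.0156). Foxo6 was not called in C129 wild-type cultures without day 0 replicate 1 or day 8 replicate 2 or with a pseudocount of 1 (adjusted p up to 0.151). Of 11 insulin-PI3K-AKT genes upstream of FoxO, 9, 7, 7, 6 and 8 were higher and 1 was lower on day 8 in Pali1-/-, Pali1-/- Pali2-/-, Pali wild-type, Aebp2gt/gt and C129 wild-type cells. The insulin receptor substrates Irs1 and Irs2 were higher in each line, with Irs1 folds of 3.05, 2.64, 2.48, 4.19 and 4.78 in that order, and the kinase gene Sgk1 was the lower one, with folds of -1.40, -0.98, -1.23, -0.93 and -2.20. Of 11 known FoxO targets, 5, 4, 5, 4 and 5 were higher and 2 in each line lower on day 8, Sesn3 among the higher and Sod2 among the lower genes of each line.

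At day 0 Foxj2 had 167 and 158 in Pali1-/-, 204 and 177 in Pali1-/- Pali2-/-, 174 and 182 in Pali wild-type, 249 and 199.8 in Aebp2gt/gt and 147 and 124 in C129 wild-type cultures. On day 4 Foxj2 had 388 and 312 in Pali1-/-, 434 and 485 in Pali1-/- Pali2-/-, 421 and 402 in Pali wild-type, 339 and 269 in Aebp2gt/gt and 203 and 234 in C129 wild-type cultures. On day 8 Foxj2 had 433 and 404 in Pali1-/-, 336 and 419 in Pali1-/- Pali2-/-, 299 and 346 in Pali wild-type, 339 and 353 in Aebp2gt/gt and 448 and 404 in C129 wild-type cultures. The day 4 and day 8 values exceeded the day 0 values in each line. Foxj2 had log2 fold changes from day 0 to day 4 of 1.08 in Pali1-/-, 1.26 in Pali1-/- Pali2-/-, 1.19 in Pali wild-type, 0.43 in Aebp2gt/gt and 0.67 in C129 wild-type cells, with an SE of 0.158 and an adjusted p of 0.0463 or less in each. Foxj2 had log2 fold changes from day 0 to day 8 of 1.34 in Pali1-/-, 0.97 in Pali1-/- Pali2-/-, 0.84 in Pali wild-type, 0.62 in Aebp2gt/gt and 1.62 in C129 wild-type cells, with an SE of 0.158 and an adjusted p of 0.00542 or less in each. On day 4 Foxj2 was not called in Aebp2gt/gt cultures without day 0 replicate 2 or day 4 replicate 1 or with no filter on low values (adjusted p up to 0.346). On day 8 Foxj2 was not called in Aebp2gt/gt cultures without day 0 replicate 2 (adjusted p up to 0.0857).

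Foxm1 was high at all stages. At day 0 it had 1297 and 1359 in Pali1-/-, 1402 and 1490 in Pali1-/- Pali2-/-, 1387 and 1486 in Pali wild-type, 1375 and 1308 in Aebp2gt/gt and 1101 and 1243 in C129 wild-type cultures. On day 8 it was called higher in Pali1-/- cells, with 1648 and 1795 and a fold of 0.37 ± 0.0957 (SE; adjusted p = 0.00425), and in C129 wild-type cells, with 1827 and 2017 and a fold of 0.71 ± 0.0957 (SE; adjusted p = 8.07e-06). Foxm1 was not called in Pali1-/- cultures without day 8 replicate 2 (adjusted p up to 0.0546). Of 12 G2 and M phase genes of the FoxM1 programme, 7, 7, 3, 4 and 6 were lower on day 8 in the 5 lines in the order above, and 1, Aurkb, was higher, in C129 wild-type cells. Kif20a and Birc5 were among the lower genes of each line. In the gene trap against C129 wild type on day 8, where Foxm1 was lower, 1 of these 12 genes was higher (Ccnb2) and 0 were lower.

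Foxk1 and Foxk2 are widely expressed repressors. Foxk1 had 683 and 535 in Pali1-/-, 419 and 645 in Pali wild-type and 479 and 582 in C129 wild-type cultures at day 0 and 957 and 968 in Pali1-/-, 804 and 978 in Pali wild-type and 1004 and 1027 in C129 wild-type cultures on day 8. Foxk1 had log2 fold changes from day 0 to day 8 of 0.67 in Pali1-/-, 0.77 in Pali wild-type and 0.94 in C129 wild-type cells, with an SE of 0.259 and an adjusted p of 0.0471 or less in each. Foxk1 was not called in Pali1-/- cultures without day 0 replicate 1 or 2 or day 8 replicate 1 or 2 or with no filter on low values or with the replicate block (adjusted p up to 0.262); in Pali wild-type cultures without day 0 replicate 1 or day 8 replicate 1 or 2 (adjusted p up to 0.343); or in C129 wild-type cultures without day 0 replicate 1 (adjusted p up to 0.0617). On day 4 it was called in Pali wild-type cells, with 1130 and 663 and a fold of 0.73 ± 0.259 (SE; adjusted p = 0.044), but not without day 0 replicate 1 or day 4 replicate 1 or with no filter on low values (adjusted p up to 0.46). Foxk2 was called in C129 wild-type cells on day 8, with 1503 and 1467 at day 0, 2337 and 2630 on day 8 and a fold of 0.74 ± 0.133 (SE; adjusted p = 0.000186). In the other 4 lines Foxk2 was not called, with 2109 and 2257 in Pali1-/-, 1937 and 2221 in Pali1-/- Pali2-/-, 2114 and 2208 in Pali wild-type and 1912 and 1597 in Aebp2gt/gt cultures at day 0 and 1998 and 2086 in Pali1-/-, 1788 and 1958 in Pali1-/- Pali2-/-, 1743 and 2138 in Pali wild-type and 2243 and 2020 in Aebp2gt/gt cultures on day 8.

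Other calls of the course stood in 1 or 2 lines. Foxa3, active in liver and gut, was lower on day 4 and day 8 in Pali1-/- Pali2-/- cells, with 90.3 and 76.4 at day 0, 53.8 and 36.2 on day 4 and 39.7 and 46.9 on day 8 (folds -0.85 ± 0.305 (SE; adjusted p = 0.0449) and -0.89 ± 0.305 (SE; adjusted p = 0.0345)). In C129 wild-type cells it was higher, with 33.97 and 37.8 at day 0 and 51 and 99.5 on day 8 (fold 0.92 ± 0.305 (SE; adjusted p = 0.0193)). Foxa3 was not called in Pali1-/- Pali2-/- cultures on day 4 without day 0 replicate 1 or 2 or day 4 replicate 2 or with no filter on low values (adjusted p up to 0.301); in Pali1-/- Pali2-/- cultures on day 8 without day 0 replicate 1 or 2 or day 8 replicate 1 or 2 (adjusted p up to 0.177); or in C129 wild-type cultures without day 0 replicate 1 or 2 or day 8 replicate 2 (adjusted p up to 0.304). Foxr1 was higher in Aebp2gt/gt cells, with 22.6 and 12.3 at day 0 and 33.5 and 34.4 on day 8 (fold 0.87 ± 0.320 (SE; adjusted p = 0.0482)). Foxr1 was not called in Aebp2gt/gt cultures without day 0 replicate 2 or day 8 replicate 1 or 2 or with a pseudocount of 1 or with no filter on low values (adjusted p up to 0.374). In Pali1-/- cells on day 8, 3 more members were higher. Foxf2 had 1.24 and 5.98 at day 0 and 11.96 and 14.2 on day 8 (fold 1.24 ± 0.360 (SE; adjusted p = 0.00989)), Foxp4 had 293 and 398 at day 0 and 754 and 703 on day 8 (fold 1.08 ± 0.399 (SE; adjusted p = 0.037)) and Foxp1 had 1.26 and 2.03 at day 0 and 61.98 and 116 on day 8 (fold 3.98 ± 1.41 (SE; adjusted p = 0.0306)). Foxf2 was not called in Pali1-/- cultures without day 0 replicate 1 or day 8 replicate 2 (adjusted p up to 0.16). Foxp4 was not called in Pali1-/- cultures without day 0 replicate 1 or 2 or day 8 replicate 1 or 2 (adjusted p up to 0.198). Foxp1 was not called in Pali1-/- cultures without day 0 replicate 1 or 2 or day 8 replicate 1 or 2 or with a pseudocount of 1 (adjusted p up to 0.142).

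Several members had duplicates that lay far apart in some groups. A group is called discordant here where 1 duplicate was at least 20 and over 4 times the other, after 1 was added to both. Foxj1 and Foxp1 were discordant in 4 groups each, Foxn2 in 3 and Foxr2 in 2, and Foxd1, Foxf1, Foxp3 and Foxq1 in 1 each. Foxn2 had 2.83 and 398 in C129 wild-type day 8 cultures, Foxp1 had 154 and 0 in Pali wild-type day 4 cultures, and Foxj1 had 0 and 54.3 in Pali1-/- day 4 cultures. For Foxd1 the group was C129 wild-type day 8, with 19.8 and 112, and the Foxd1 folds and differences that use this group rest on those duplicates. Foxr2 was listed at 0 in both libraries of 3 groups (Pali1-/- day 4, Pali1-/- Pali2-/- day 0 and Pali wild-type day 8), while Pali1-/- day 0 had 28.5 and 34.9 and Pali1-/- Pali2-/- day 4 had 46.1 and 39.1. Foxr2 was called lower on day 4 in Pali1-/- (adjusted p = 0.0231) and higher on day 4 in Pali1-/- Pali2-/- cells (0.0132). Foxr2 was not called in Pali1-/- cultures without day 0 replicate 1 or 2 or day 4 replicate 1 or 2 (adjusted p up to 0.101); or in Pali1-/- Pali2-/- cultures without day 0 replicate 1 or 2 or day 4 replicate 1 or 2 (adjusted p up to 0.0663). Foxj1 drives motile cilia, and of 8 tested cilia genes of its programme, 2 were higher and 1 lower in Pali1-/- cells, 0 were called in Pali1-/- Pali2-/- cells and 1 was higher in Aebp2gt/gt cells on day 8, each against its wild type. Foxp3, the factor of regulatory T cells, lay between 6.11 and 50.4, and the T cell markers Cd3e and Cd4 together did not exceed 55.8 in any library. Foxp3 is overlapped on the other strand by Ppp1r3f, Gm36995 and Ccdc22. Foxn3, a repressor, lay between 39.7 and 377 in all libraries.

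**Figure D5:**
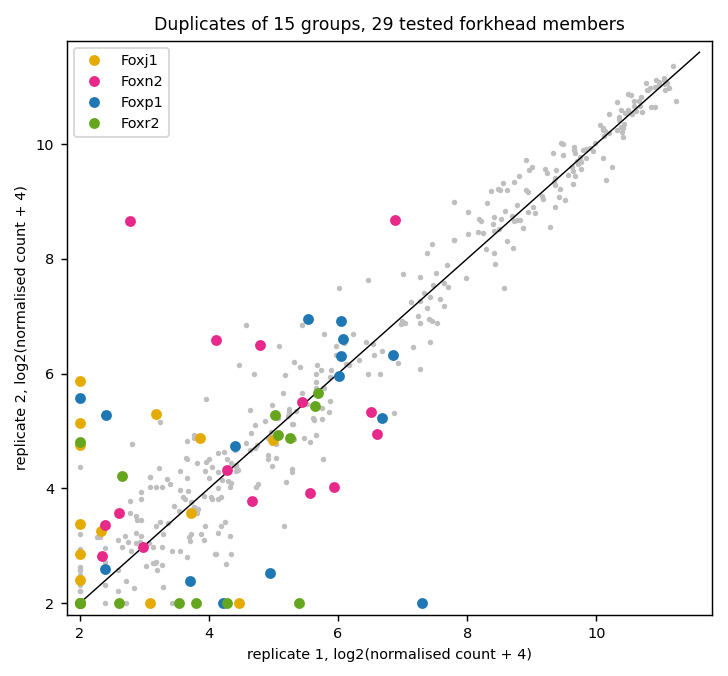
Replicate 1 (horizontal axis) against replicate 2 (vertical axis) of 29 tested members in each of the 15 groups, both as log2 of the normalised count + 4; Foxj1, Foxn2, Foxp1 and Foxr2 are coloured, the other members grey. Points of these 4 genes lie farthest from the diagonal, such as Foxn2 in C129 wild-type day 8 cultures (2.83 and 398) and Foxp1 in Pali wild-type day 4 cultures (154 and 0).

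The wild types differed from each other in several members at each stage. In C129 against Pali wild type, 3 members were called at day 0 (21.1% of all tested genes), 5 on day 4 (15.9%) and 7 on day 8 (17.3%). With 1 library left out, calls were lost at each stage, as given for each gene below. On day 4 only Foxj2 kept its call without C129 replicate 1 or without Pali replicate 1. On day 8 Foxb1 had 171 and 303 in C129 wild-type and 15.1 and 6.67 in Pali wild-type cultures, a fold of 4.02 ± 0.476 (SE; adjusted p = 1.63e-05). Foxd3 had 113 and 35.8 in C129 wild-type and 255 and 449 in Pali wild-type cultures, a fold of -2.33 ± 0.408 (SE; adjusted p = 0.000677). Neither gene lost its call with 1 library left out, and in neither did the lines overlap. Foxo1 was lower, with 689.5 and 589.9 in C129 wild-type and 1098 and 1210 in Pali wild-type cultures and a fold of -0.85 ± 0.166 (SE; adjusted p = 0.00153). Foxc1 (fold 1.73 ± 0.516 (SE; adjusted p = 0.0271)), Foxd1 (2.32 ± 0.594 (SE; adjusted p = 0.0109)) and Foxd4 (1.63 ± 0.517 (SE; adjusted p = 0.0363)) were higher. In all 3, C129 wild-type replicate 2 was the higher duplicate, and without it the adjusted p was 0.341 for Foxc1, 0.236 for Foxd1 and 0.287 for Foxd4. Foxc1 and Foxd4 were also lost without Pali wild-type replicate 1 or 2 or with a pseudocount of 1, and Foxd1 without Pali wild-type replicate 2 (adjusted p = 0.0923). Foxr2 had 34 and 25.3 in C129 wild-type cultures and, in both Pali wild-type cultures, was listed at 0 (adjusted p = 0.0428), a call lost with any library left out (adjusted p up to 0.144).

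On day 4 Foxd3 was higher in C129 wild type, with 914 and 864 in C129 wild-type and 218 and 318 in Pali wild-type cultures and a fold of 1.74 ± 0.408 (SE; adjusted p = 0.00732). Foxd3 was not called without Pali wild-type replicate 1 or without C129 wild-type replicate 1, with adjusted p values up to 0.0804. Foxj2 was lower, with 203 and 234 in C129 wild-type and 421 and 402 in Pali wild-type cultures and a fold of -0.90 ± 0.158 (SE; adjusted p = 0.000827). The line with more Foxd3 thus changed between day 4 and day 8. Foxo4 had 2149 and 2105 in C129 wild-type and 1527 and 1611 in Pali wild-type cultures (fold 0.44 ± 0.142 (SE; adjusted p = 0.0443)), Foxm1 1304 and 1422 in C129 wild-type and 1841 and 1592 in Pali wild-type cultures (fold -0.33 ± 0.0957 (SE; adjusted p = 0.0253)) and Foxd4 13.6 and 10.1 in C129 wild-type and 49.9 and 38.4 in Pali wild-type cultures (fold -1.61 ± 0.517 (SE; adjusted p = 0.0422)). Foxo4 was not called without Pali wild-type replicate 1 or 2, without C129 wild-type replicate 1 or 2 or with no filter on low values, with adjusted p values up to 0.193. Foxm1 was not called without Pali wild-type replicate 1 or without C129 wild-type replicate 1, with adjusted p values up to 0.249. Foxd4 was not called without Pali wild-type replicate 1 or 2, without C129 wild-type replicate 1 or 2, with a pseudocount of 1 or with no filter on low values, with adjusted p values up to 0.199.

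At day 0 Foxa3 had 33.97 and 37.8 in C129 wild-type and 117 and 68.4 in Pali wild-type cultures, a fold of -1.23 ± 0.305 (SE; adjusted p = 0.00709). Foxk2 had 1503 and 1467 in C129 wild-type and 2114 and 2208 in Pali wild-type cultures, a fold of -0.54 ± 0.133 (SE; adjusted p = 0.00718). Foxm1 had 1101 and 1243 in C129 wild-type and 1387 and 1486 in Pali wild-type cultures, a fold of -0.29 ± 0.0957 (SE; adjusted p = 0.0354). All 3 were lower in C129 wild-type ES cells, without overlap. Foxa3 was not called without Pali wild-type replicate 1 or without C129 wild-type replicate 1, with adjusted p values up to 0.122. Foxk2 was not called without Pali wild-type replicate 2, with adjusted p values up to 0.0516. Foxm1 was not called without Pali wild-type replicate 1 or 2 or without C129 wild-type replicate 1, with adjusted p values up to 0.299. The change from day 0 to day 8 differed between C129 and Pali wild type in 6 members, against 14.2% of all genes, with 0.90 ± 0.189 (SE; adjusted p = 0.00385) for Foxk2 and -2.65 ± 0.577 (SE; adjusted p = 0.00516) for Foxd3.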

How the data were processed

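Total RNA of ES cells and embryoid bodies was sequenced after rRNA depletion with a strand-marking kit, per the labels' protocols. The deposited table holds normalised counts, a signal made by the authors; kallisto 0.43.1, HISAT2 2.0.5, DESeq2, GENCODE M21 and the mm10 build are named, without roles, in the submitters' processing notes. Only 81.7% to 86.1% of low values were whole multiples of 1 read, so no count test was run.

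The 15712 genes that reached 10 in 2 or more libraries were tested with limma 3.58.1 in R 4.3.3 on log2(value + 4), with 15 group means, 15 residual degrees of freedom and trended, robust moderation, over 31 contrasts; p-values were adjusted within each by Benjamini-Hochberg. The fit was tested on simulated data. The labels give no batch. Duplicates correlated at 0.948 to 0.961 across genes. Alternatives were a pseudocount of 1, no filter, a filter at a mean of 50, rescaling by trimmed means of M values (TMM), a replicate block and leaving out each library. The members and gene lists were chosen with earlier results of these data known. A member was named with its values where it was called, for at most 12 members a comparison by lowest adjusted p. The values of 1 tested member are not reported here; it is part of the counts.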

Additional observations from a re-analysis of the deposited data

Results flagged for a closer look

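These members changed, or responded to the mutation on day 8, by different amounts in 2 lines according to limma's test of the difference itself (log2 scale, ± SE); no cause of any of them was tested.

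The change from day 0 to day 8 in Pali1-/- minus that in Pali wild-type cells was 3.57 ± 0.673 for Foxb1 (adjusted p = 0.0064). Foxb1 was not called with a pseudocount of 1 (adjusted p = 0.0805). In Aebp2gt/gt minus C129 wild-type cells the same difference was -1.65 ± 0.431 for Foxa3 (adjusted p = 0.0153), -5.30 ± 0.673 for Foxb1 (adjusted p = 9.55e-05) and -3.05 ± 0.840 for Foxd1 (adjusted p = 0.0202). It was also 2.03 ± 0.577 for Foxd3 (adjusted p = 0.024), 2.08 ± 0.660 for Foxi3 (adjusted p = 0.0408) and -0.999 ± 0.223 for Foxj2 (adjusted p = 0.00583). The remaining value was -0.62 ± 0.135 for Foxm1 (adjusted p = 0.0049). The Foxd1 value rests on the added constant, since the gene trap is listed at 0 on day 8. Foxb1, Foxj2 and Foxm1 kept the call with each library left out and under the other alternatives that could be fitted. Foxa3 was not called without Aebp2gt/gt day 8 replicate 2, C129 wild-type day 0 replicate 1 or C129 wild-type day 8 replicate 2 (adjusted p up to 0.0937). Foxd1 was not called without Aebp2gt/gt day 0 replicate 2, Aebp2gt/gt day 8 replicate 1, C129 wild-type day 0 replicate 2 or C129 wild-type day 8 replicate 2 (adjusted p up to 0.119). Foxd3 was not called without Aebp2gt/gt day 0 replicate 1, Aebp2gt/gt day 8 replicate 2, C129 wild-type day 0 replicate 1 or 2 or C129 wild-type day 8 replicate 2 (adjusted p up to 0.136). Foxi3 was not called without Aebp2gt/gt day 0 replicate 2, Aebp2gt/gt day 8 replicate 1 or 2, C129 wild-type day 0 replicate 1 or C129 wild-type day 8 replicate 1 or 2 (adjusted p up to 0.183).

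Between the wild types, C129 minus Pali, the difference in change from day 0 to day 8 was 3.78 ± 0.673 for Foxb1 (adjusted p = 0.00106), -2.65 ± 0.577 for Foxd3 (adjusted p = 0.00516) and 0.78 ± 0.223 for Foxj2 (adjusted p = 0.0253). It was also 0.90 ± 0.189 for Foxk2 (adjusted p = 0.00385) and 0.54 ± 0.135 for Foxm1 (adjusted p = 0.0128). Foxb1, Foxd3 and Foxk2 kept the call with each library left out and under the other alternatives that could be fitted. Foxj2 was not called without Pali wild-type day 0 replicate 1 or 2, Pali wild-type day 8 replicate 1, C129 wild-type day 0 replicate 2 or C129 wild-type day 8 replicate 1 (adjusted p up to 0.0991). Foxm1 was not called without Pali wild-type day 0 replicate 2, C129 wild-type day 0 replicate 1 or C129 wild-type day 8 replicate 2 (adjusted p up to 0.0705).

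The day 8 effect of Pali1-/- minus that of Aebp2gt/gt, each over its own wild type, was 8.76 ± 0.673 for Foxb1 (adjusted p = 8.43e-08), 4.36 ± 0.730 for Foxc1 (adjusted p = 0.000202) and 5.50 ± 0.840 for Foxd1 (adjusted p = 8.65e-05). It was also -2.22 ± 0.577 for Foxd3 (adjusted p = 0.00749), 2.79 ± 0.731 for Foxd4 (adjusted p = 0.00771) and 1.52 ± 0.508 for Foxf2 (adjusted p = 0.0315). Further values were -2.08 ± 0.660 for Foxi3 (adjusted p = 0.0241), 0.67 ± 0.223 for Foxj2 (adjusted p = 0.0309) and 1.75 ± 0.570 for Foxl2 (adjusted p = 0.0278). Further values were 3.30 ± 0.752 for Foxl2os (adjusted p = 0.00277), 0.51 ± 0.135 for Foxm1 (adjusted p = 0.00836) and -0.87 ± 0.234 for Foxo1 (adjusted p = 0.00933). The remaining values were 2.68 ± 0.684 for Foxp2 (adjusted p = 0.00649), 2.16 ± 0.564 for Foxp4 (adjusted p = 0.00777) and 3.34 ± 0.767 for Foxq1 (adjusted p = 0.00297). The Foxd1 value again rests on the added constant. Foxb1, Foxc1, Foxd1, Foxd3, Foxd4, Foxl2os, Foxo1, Foxp2 and Foxq1 kept the call with each library left out and under the other alternatives that could be fitted. Foxf2 was not called without Pali1-/- day 8 replicate 1 or 2, Pali wild-type day 8 replicate 1, Aebp2gt/gt day 8 replicate 2 or C129 wild-type day 8 replicate 1 or 2, or with a pseudocount of 1 (adjusted p up to 0.155). Foxi3 was not called without Pali1-/- day 8 replicate 2, Pali wild-type day 8 replicate 2, Aebp2gt/gt day 8 replicate 2 or C129 wild-type day 8 replicate 2 (adjusted p up to 0.145). Foxj2 was not called without Pali1-/- day 8 replicate 1 or 2, Pali wild-type day 8 replicate 1, Aebp2gt/gt day 8 replicate 1 or 2 or C129 wild-type day 8 replicate 1 (adjusted p up to 0.114). Foxl2 was not called without Pali wild-type day 8 replicate 1 or Aebp2gt/gt day 8 replicate 1, or with a pseudocount of 1 (adjusted p up to 0.113). Foxm1 was not called without Aebp2gt/gt day 8 replicate 1 (adjusted p = 0.0564). Foxp4 was not called without Pali wild-type day 8 replicate 1 (adjusted p = 0.0512).

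The day 8 effect of Pali1-/- Pali2-/- minus that of Aebp2gt/gt was 7.47 ± 0.673 for Foxb1 (adjusted p = 1.03e-06), 3.41 ± 0.730 for Foxc1 (adjusted p = 0.0022) and 5.67 ± 0.840 for Foxd1 (adjusted p = 9.94e-05). It was also -1.95 ± 0.577 for Foxd3 (adjusted p = 0.0199), 1.63 ± 0.508 for Foxf2 (adjusted p = 0.0261) and 2.63 ± 0.752 for Foxl2os (adjusted p = 0.0161). Further values were 0.43 ± 0.135 for Foxm1 (adjusted p = 0.0292), -0.76 ± 0.234 for Foxo1 (adjusted p = 0.0249) and 3.15 ± 0.684 for Foxp2 (adjusted p = 0.00248). The remaining value was 3.90 ± 0.767 for Foxq1 (adjusted p = 0.00114). Both sets of day 8 differences use the same gene-trap, C129 and Pali wild-type libraries, and the Foxd1 value rests on the added constant. Foxb1, Foxc1, Foxd1, Foxp2 and Foxq1 kept the call with each library left out and under the other alternatives that could be fitted. Foxd3 was not called without Pali1-/- Pali2-/- day 8 replicate 1, Pali wild-type day 8 replicate 2, Aebp2gt/gt day 8 replicate 2 or C129 wild-type day 8 replicate 2 (adjusted p up to 0.122). Foxf2 was not called without Pali1-/- Pali2-/- day 8 replicate 2, Pali wild-type day 8 replicate 1, Aebp2gt/gt day 8 replicate 2 or C129 wild-type day 8 replicate 1 (adjusted p up to 0.129). Foxl2os was not called without Pali wild-type day 8 replicate 2, Aebp2gt/gt day 8 replicate 1 or C129 wild-type day 8 replicate 2 (adjusted p up to 0.0825). Foxm1 was not called without Pali1-/- Pali2-/- day 8 replicate 2, Pali wild-type day 8 replicate 1 or 2, Aebp2gt/gt day 8 replicate 1 or C129 wild-type day 8 replicate 2, or after TMM rescaling (adjusted p up to 0.152). Foxo1 was not called without Pali1-/- Pali2-/- day 8 replicate 1, Pali wild-type day 8 replicate 2, Aebp2gt/gt day 8 replicate 1 or C129 wild-type day 8 replicate 2 (adjusted p up to 0.1).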

How the results depend on the processing

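Of 303 counts of called members under the alternatives, 235 were within 1.5 times the reported count and 68 were not. No single-gene call changed direction in the fits where its gene was tested. With a pseudocount of 1, the day 8 count was 1 in Pali1-/- and 1 in Pali1-/- Pali2-/- cells, 4 in C129 against Pali wild type, and 0 for the change in Pali1-/- minus Pali wild type. With no filter on low values, 3 members were called between the wild types on day 4. TMM rescaling gave 2 in Aebp2gt/gt ES cells. A filter at a mean of 50 tested 15 members instead of 30, and its shares over all genes are not given. It gave 1 and 0 on day 8 in Pali1-/- and Pali1-/- Pali2-/- cells, 2 at day 0 and 3 on day 8 in Aebp2gt/gt cells, and 7, 5, 7, 5 and 8 for day 8 against day 0 in Pali1-/-, Pali1-/- Pali2-/-, Pali wild-type, Aebp2gt/gt and C129 wild-type cells. It also gave 1 for the double against the single mutant at day 0, 2 between the wild types on day 8, 0 for the change in Pali1-/- minus Pali wild type, and 7 and 4 for the day 8 effects of Pali1-/- and Pali1-/- Pali2-/- minus that of Aebp2gt/gt. The 3 of 15 members in Aebp2gt/gt cells on day 8 stand beside 9 of 30 in the main fit, where 20.1% of all tested genes were called.

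With the replicate number as a block, 1 member was called at day 0 and 6 on day 8 in Pali1-/- cells, 2 in Aebp2gt/gt ES cells and 2 for the change in Pali1-/- minus Pali wild type. Libraries with the same number deviated together weakly at most (correlations of deviations from -0.06 to 0.11 over 25 pairs of groups, 1 above 0.1). Over all genes the block called more, such as 945 instead of 752 in Pali1-/- ES cells against Pali wild type. In Aebp2gt/gt against C129 wild type on day 8 it called 3412 instead of 3165. A replicate effect shared between groups was not part of the main fit. Of the single-gene calls, the block lost 1, Foxk1 on day 8 in Pali1-/- cells, and kept 169.

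With each library left out in turn, the mutant counts lay between 0 and 1 (Pali1-/- day 0), at 0 (Pali1-/- day 4), between 1 and 3 (Pali1-/- day 8), 0 and 1 (Pali1-/- Pali2-/- day 0 and day 4), at 1 (Pali1-/- Pali2-/- day 8), between 0 and 1 (Aebp2gt/gt day 0) and 4 and 11 (Aebp2gt/gt day 8). For the course they lay between 10 and 13 (Pali1-/- day 8), 3 and 5 (Pali1-/- Pali2-/- day 4), 7 and 9 (Pali1-/- Pali2-/- day 8), 4 and 10 (Pali wild-type day 8), 3 and 6 (Aebp2gt/gt day 4), 3 and 8 (Aebp2gt/gt day 8) and 4 and 6 (C129 wild-type day 4). Double against single mutant, they lay between 0 and 2 at day 0 and 0 and 1 on day 8; between the wild types, 1 and 3 at day 0, 1 and 5 on day 4 and 3 and 7 on day 8. For the change from day 0 to day 8 they lay between 0 and 1 (Pali1-/- Pali2-/- minus Pali wild type) and 3 and 7 (Aebp2gt/gt minus C129 wild type). Single-gene calls were kept in 587 and lost in 244 of these fits. A group left with 1 library is assumed to vary like the others. The counts with a library left out can include members that were not called with all libraries. With 2 libraries per group and 1 read worth up to 1.27 units, values of members below about 10 rest on few reads, and the cause of the changes above was not tested.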
